A study of Mus musculus with 6 samples.

Results

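Paraxial mesoderm is the tissue that lies on either side of the embryo's midline and is cut into somites, from which vertebrae, skeletal muscle and dermis form. Its genes were followed here through 9 members chosen by name, Tbx6, Msgn1, Meox1, Rspo3, Tcf15, Pax3, Foxc1, Foxc2 and Hes7, out of 21461 genes named on the array. All 9 had a probe, 11 probes in all of the 46632 on the array. Tbx6 and Rspo3 had 2 probes each. The probe for Pax3 was named through the symbol column of a second deposited table, and 1 probe for Rspo3 carried the older symbol Thsd2 there.

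Total RNA was measured on 6 Illumina bead arrays from embryoid bodies at day 3, the aggregates that embryonic stem (ES) cells of the mouse form when they differentiate in suspension. Of these, 3 were labelled as wild type E14 ES cells (WT-1, WT-2 and WT-3) and 3 as endoglin knockout ES cells (KO-1, KO-2 and KO-3), and values are given in that order throughout. Endoglin, the product of Eng, binds TGF-beta family ligands together with their signalling receptors, and the series asks what its loss changes in embryoid bodies. The sources used here do not give the allele, the number of knockout clones or any treatment. The labels give the strain C57BL/6 for every sample although E14 cells come from another strain, and nothing in them shows that replicates were separate cultures, so p-values cover the spread between these arrays alone.

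Paraxial mesoderm leaves the primitive streak under Wnt and FGF signals. Tbx6 and Msgn1 are transcription factors of the unsegmented (presomitic) tissue, Hes7 is a repressor of the Notch-driven segmentation clock, and Tcf15, Meox1, Foxc1, Foxc2 and Pax3 act in the forming somites. Rspo3 is a secreted protein that strengthens Wnt signalling and is made in the streak and presomitic mesoderm.

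Before the members, 2 arrays stood apart from their labels, KO-1 and WT-3. WT-1 and WT-2 differed from each other by 2-fold or more at 2 of 16618 features, but from WT-3 at 104 and 98. KO-2 and KO-3 differed at 0 features from each other, and from KO-1 at 84 and 79. Eng, the targeted gene, measured 87.0, 90.6 and 44.4 in the WT samples and 73.5, 45.4 and 48.7 in the KO samples, with its second probe above background on 0 arrays. KO-1 was thus nearer to WT-1 and WT-2, and WT-3, below the background limit, was at the level of KO-2 and KO-3. Over all arrays Eng differed by -0.28 between the labels (SE 0.22, limma adjusted p = 0.999), and without KO-1 and WT-3 by -0.67 (SE 0.08, limma adjusted p = 0.000448). The latter fit sets WT-1 and WT-2 against KO-2 and KO-3, picked by these same values and apart on the slide. Its p-value is thus no independent check. No source used here places these probes relative to the deleted part, so Eng checks the labels only in part. All 6 arrays lay on 1 slide, with WT-1, KO-1 and WT-2 at positions A, B and C, and KO-2, WT-3 and KO-3 at positions D, E and F. The arrays that resembled each other were therefore also neighbours on the slide, so an exchange of labels between KO-1 and WT-3, slide position and a difference between the samples of one label cannot be told apart. If those labels were exchanged, a difference between the labels given here would compare mixed groups. Directions follow the deposited labels, and the differences of members above background and the counts in gene lists are also given without KO-1 and WT-3. Those arrays were left out because of their values, so no p-value or count without them is independent evidence.

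No paraxial mesoderm gene passed the test between the labels. Of the 9 members, 4 lay above the background limit (46.3 to 46.4 in intensity) on all 6 arrays and entered the test, the limit being the intensity that 95% of an array's background spots would not exceed: Tbx6, Msgn1, Rspo3 and Tcf15. Among these, 0 were higher and 0 lower in the KO samples at an adjusted p under 0.05 in limma, where the background was 0% of 16618 features (2.18% at an unadjusted p under 0.05, against 0 of the 4). Values were lower in the KO samples for 3 of the 4, as they were for 48.5% of all features. The other 5 were tested without the filter, and 0 passed. Of the 11 probes, 0 had the 3 arrays of one label all on one side of the other, against 6.94% of all features. For Tbx6, Rspo3, Msgn1 and Tcf15, WT-1, WT-2 and KO-1 instead lay all above or all below the other 3 arrays. The gap was wide for Tbx6 and Rspo3 and narrow for Msgn1, as shown array by array in what follows.

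**Figure D1:**
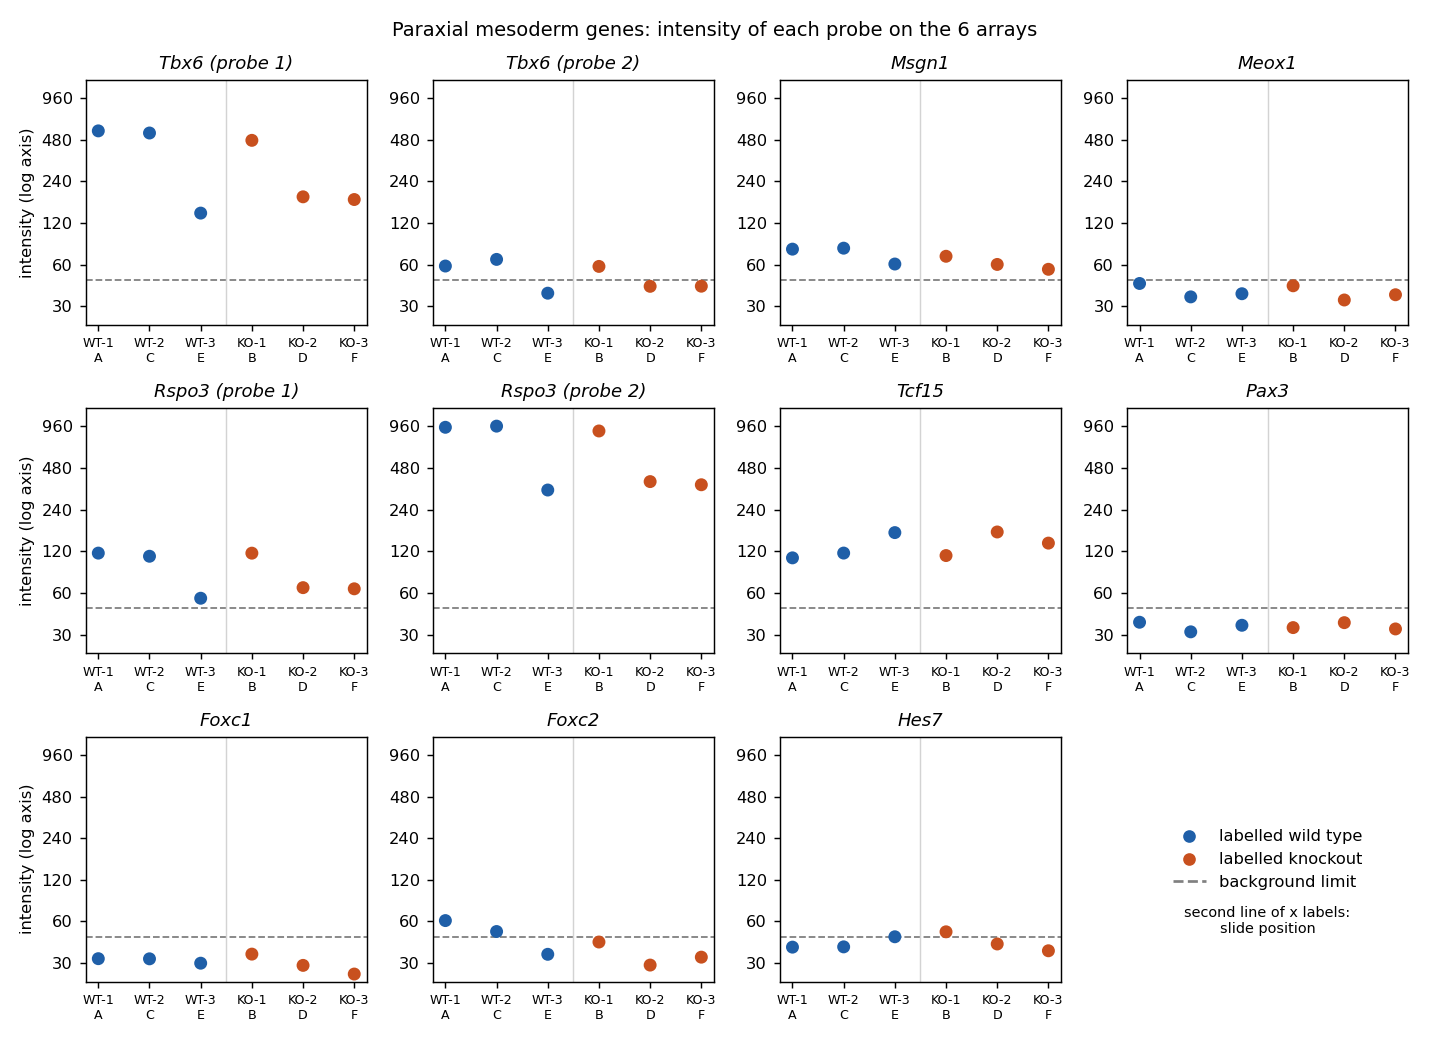
Intensity (log axis) of the 11 probes of the 9 paraxial mesoderm genes on each array, with points in blue for arrays labelled wild type (WT-1 to WT-3) and orange for arrays labelled knockout (KO-1 to KO-3), the slide position on the second line, and the mean background limit dashed. Tbx6 and Rspo3 were high on WT-1, WT-2 and KO-1 and lower on WT-3, KO-2 and KO-3, Tcf15 ran the other way, and Meox1, Pax3 and Foxc1 stayed below the limit.

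Tbx6, a T-box factor without which paraxial cells take a neural course in the mouse, had the widest range of the members. Its brighter probe measured 555, 536 and 141 in the WT samples and 474, 185 and 177 in the KO samples. The arrays of WT-1, WT-2 and KO-1 were high, the other 3 were low, and the labels overlapped. The highest array was 3.93 times the lowest. On the log2 scale after background correction, the Tbx6 mean was 8.55 ± 1.03 (SD, n = 3) in the WT and 8.10 ± 0.74 (SD, n = 3) in the KO samples. The difference was -0.45 (SE 0.53, limma adjusted p = 0.999). Within slide positions A to C the knockout array lay 0.19 below the mean of the 2 wild type arrays (difference -0.19), and within positions D to F the 2 knockout arrays averaged 0.31 above the wild type array. With slide position as a block the difference therefore turned to 0.06 (SE 0.10, limma adjusted p = 1.00).

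Without KO-1 and WT-3, the Tbx6 difference was -1.48 (SE 0.08, limma adjusted p = 1.03e-06). Those 2 arrays were left out because of their values, so this is no independent evidence of an effect of the genotype. In bulk RNA, fewer paraxial cells and less Tbx6 RNA per cell cannot be told apart. The second Tbx6 probe was dimmer, at 58.5, 65.3 and 37.2 in the WT samples and 58.1, 41.7 and 41.8 in the KO samples. It lay above the background limit on 3 arrays, the same 3 on which the brighter probe was high, and the 2 probes correlated across the 6 arrays at 0.98.

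Rspo3, the secreted Wnt amplifier, followed the same arrays. Its brighter probe measured 946, 964 and 333 in the WT samples and 890, 383 and 364 in the KO samples. Again WT-1, WT-2 and KO-1 were high and the labels overlapped, with the highest array at 2.90 times the lowest. The difference between the labels was -0.42 (SE 0.46, limma adjusted p = 0.999). It was -0.10 within slide positions A to C, 0.15 within positions D to F, and 0.03 (SE 0.08, limma adjusted p = 1.00) with slide position as a block. Without the 2 arrays that stood apart it was -1.30 (SE 0.08, limma adjusted p = 2.68e-06). As for Tbx6, this is no independent evidence, because the arrays were left out for their values. The second Rspo3 probe gave 117, 111 and 55.0 in the WT samples and 116, 65.6 and 64.3 in the KO samples. Both probes ordered the arrays into the same 3 high and 3 low, and they correlated across arrays at 0.99.

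Msgn1, a basic helix-loop-helix factor that drives cells out of the streak into presomitic mesoderm, was nearer to background and moved less. It measured 77.5, 78.8 and 60.5 in the WT samples and 68.8, 60.1 and 55.4 in the KO samples. The lowest of WT-1, WT-2 and KO-1 was 1.14 times the highest of the other 3, compared with 2.56 times for the brighter probe of Tbx6 and 2.32 times for that of Rspo3. The difference between the labels was -0.17 (SE 0.10, limma adjusted p = 0.999). It was below 0 within both parts of the slide, at -0.14 in positions A to C and -0.05 in positions D to F, and at -0.09 with slide position as a block. Without the 2 arrays that stood apart it was -0.33 (SE 0.08, limma adjusted p = 0.0331), again no independent evidence. The correction adds an offset of 50 to every intensity, so differences of a probe this dim are understated on the log2 scale.

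The starts of Tbx6 and Msgn1 are shown because these presomitic factors were high on the same arrays, and Msgn1 is known in the mouse as a target of Wnt signalling. Of the 9 members, 4 had a promoter window (Tbx6, Msgn1, Foxc1 and Hes7), running from 250 bases before to 50 bases after the RefSeq start on build GRCm38.p6. Capitals mark matches, on either strand, to the TCF/LEF letters CTTTGA or CTTTGT or to the T-box half-site letters TCACAC. The windows are Tbx6 at chr7:126781233-126781532 on the plus strand and Msgn1 at chr12:11208899-11209198 on the minus strand.
Tbx6: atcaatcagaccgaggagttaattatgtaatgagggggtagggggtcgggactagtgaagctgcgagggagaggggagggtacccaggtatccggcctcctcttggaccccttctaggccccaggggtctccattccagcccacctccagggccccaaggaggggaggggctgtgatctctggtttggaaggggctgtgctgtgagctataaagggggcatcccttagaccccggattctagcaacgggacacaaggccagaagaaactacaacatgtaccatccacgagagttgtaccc
Msgn1: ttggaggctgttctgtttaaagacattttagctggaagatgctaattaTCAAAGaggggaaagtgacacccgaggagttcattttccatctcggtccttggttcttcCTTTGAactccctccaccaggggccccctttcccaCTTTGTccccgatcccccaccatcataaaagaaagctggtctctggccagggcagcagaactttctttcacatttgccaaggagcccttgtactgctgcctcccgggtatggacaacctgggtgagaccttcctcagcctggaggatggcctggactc

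The Msgn1 window held 3 TCF/LEF matches, which began 202, 143 and 108 bases before the start (positions -202, -143 and -108). Of 32851 RefSeq windows of the same length, 31.2% held at least 1 such match and 1.14% at least 3. The Tbx6, Foxc1 and Hes7 windows held 0, and none of the 4 windows held the T-box letters, which 14.5% of all windows did. The E-box letters CANNTG, read by basic helix-loop-helix factors, occurred 1 time in Msgn1, 2 times in Hes7 and 0 times in Tbx6 and Foxc1, and in 72.3% of all windows. These are matches of letters and say nothing of binding.

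Tcf15, the basic helix-loop-helix factor also called paraxis, ran opposite to the presomitic genes. It keeps somites epithelial in the mouse and is also known from epiblast-like cells on their way out of naive pluripotency. Its intensities were 108, 117 and 164 in the WT samples and 112, 166 and 138 in the KO samples. WT-1, WT-2 and KO-1 were low and the other 3 were high. The difference between the labels was 0.09 (SE 0.16, limma adjusted p = 0.999). It turned to -0.05 with slide position as a block, to -0.01 without WT-1 and to -0.03 without KO-2. Without both arrays that stood apart it was 0.37 (SE 0.10, limma adjusted p = 0.0397), which is likewise no independent evidence.

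**Figure D2:**
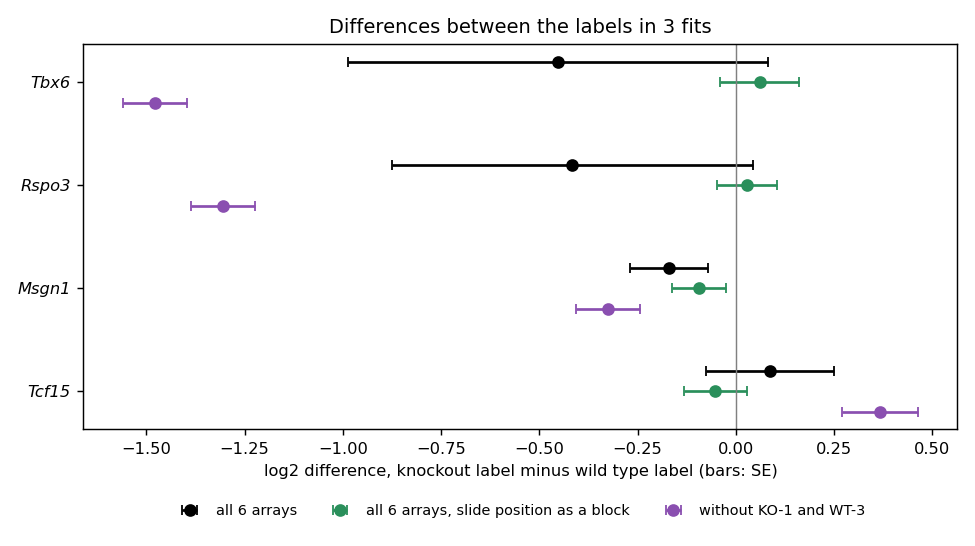
Log2 difference, knockout label minus wild type label, with its standard error (bars), for the 4 paraxial mesoderm genes above background in the fit over all 6 arrays, with slide position as a block, and without KO-1 and WT-3. Tbx6 moved from -0.45 to 0.06 and to -1.48 between the 3 fits, and Rspo3 from -0.42 to 0.03 and to -1.30.

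The forkhead genes Foxc1 and Foxc2, which together are needed for somite formation in the mouse, were at or below background. Foxc2 measured 60.9, 50.7 and 34.7 in the WT samples and 42.6, 29.0 and 33.1 in the KO samples. It was above the limit on WT-1 and WT-2 and on no other array. WT-3 and all KO samples were below it, so the ratio between the labels has no reliable bound. The measured log2 means were 6.15 in the WT and 5.85 in the KO samples (limma adjusted p = 0.999 without the filter). Without the 2 arrays that stood apart, the mean of WT-1 and WT-2 was at least 1.13-fold that of KO-2 and KO-3, taken at the limit. In the fit without the filter the Foxc2 difference was then -0.54 (SE 0.08, limma adjusted p = 0.00387). Foxc2 was below the limit on KO-2 and KO-3, and the arrays were left out because of their values. Foxc1 ranged from 25.0 to 34.8 and lay above the limit on 0 arrays.

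The members Hes7, Meox1 and Pax3, of segmentation and the somites, were likewise not well above background. Hes7, whose product cycles in presomitic mesoderm, measured 39.1, 39.3 and 46.5 in the WT samples and 50.5, 41.3 and 36.8 in the KO samples. It was above the limit on KO-1 and WT-3, by a small margin on the latter, and showed no split into high and low arrays. Meox1, a homeobox gene of the somites, ranged from 33.2 to 43.8, and Pax3, a paired-box gene of the dermomyotome and neural crest, from 31.4 to 36.9. Both were above the limit on 0 arrays. Tbx6, Msgn1, Rspo3 and Tcf15 were thus the members above background on every array, 3 members lay below the limit throughout, and Tcf15 did not follow the presomitic genes. Markers of other cell types split over the same arrays, so these genes do not by themselves show paraxial mesoderm in these embryoid bodies.

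Among the members themselves, the 3 presomitic genes correlated across the 6 arrays at 0.997 (Tbx6 and Rspo3), 0.92 (Tbx6 and Msgn1) and 0.93 (Msgn1 and Rspo3). Tcf15 correlated at -0.93 with Tbx6, -0.93 with Rspo3 and -0.78 with Msgn1. These coefficients describe 6 arrays that fall into 2 clusters and carry no test. Of the 4 members above background throughout, 3 had WT-1, WT-2 and KO-1 all above the other 3 arrays, and 1 had them all below. The same held for 14.7% and 15.3% of all 16618 features. Without the 2 arrays that stood apart, all 4 passed in limma, 3 lower and 1 higher. Of all features 4.28% and 3.77% passed in those directions (8.05% in all). The 4 members follow the split by which the arrays were left out, so their calls are no independent evidence.

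By the likeness of their values over the 6 arrays, among 372 named genes (clone and locus names left out) with an SD of at least 0.3 on the log2 scale, the closest to Tbx6 were Tgfb2, Evx1, Mesp1, Cdh2 and Dusp2 (Pearson r of 0.998 to 0.999). Mesp1, a bHLH factor of nascent mesoderm, measured 3723, 3379 and 549 in the WT samples and 3105, 797 and 849 in the KO samples. Evx1, a homeobox gene of the streak, measured 2948, 3027 and 963 against 2737, 1173 and 1183. The closest to Rspo3 were St3gal6, Etv2, Egln3, Cnrip1 and Pmp22 (r of 0.998 to 0.999), with Etv2, the driver of haemangioblast formation, at 4382, 4758 and 1392 against 4103, 1593 and 1465. For Msgn1 they were Sox7, Tmem114, Abi3, P3h2 and Zc3hav1 (r of 0.97 to 0.98). The mean of the 4 standardized profiles includes Tcf15, which runs opposite to the others and offsets them in part. Against this mean, Rnd3, Tmem114, Hdac7, Gas6 and Sox7 came first (r of 0.98 to 0.99). Etv2 and Sox7, known from blood and vessel formation, were among these genes. Sox7 lay above background on 3 arrays only, WT-1, WT-2 and KO-1, and so passed the filter through the arrays where it was high. The candidates were picked for a wide spread over these same 6 arrays, so a high r is no evidence of a shared role.

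The signals that induce paraxial mesoderm were read in a list of 20 Wnt and FGF genes and brachyury. Of these 18 were above background, which here and in the lists that follow means on at least 3 of the 6 arrays. A gene could thus enter a list through WT-1, WT-2 and KO-1 alone, where it was high, as Eya1, Cyp26b1 and Foxf1 did. For such genes the split over those arrays was in part set by the filter. In the Wnt and FGF list 0 rose and 0 fell between the labels. Values were lower for 11 and higher for 7, with 48.5% of all features lower. The median difference was -0.06, beside 0.00 over all features. Wnt5a had the widest range, at 286, 255 and 55.4 in the WT samples and 324, 51.4 and 57.1 in the KO samples. Fgf3 was at 101, 134 and 48.9 against 90.3, 58.9 and 51.9. Wnt8a, a ligand of the early streak, ran the other way, at 348, 376 and 606 against 350, 635 and 698. Tcf7, with the smallest p, differed by -0.20 (SE 0.12, limma adjusted p = 0.999). Brachyury (T), which acts upstream of Tbx6 in the mouse, is named here because of its role, after its values were known. It measured 5052, 5323 and 3591 in the WT samples and 5612, 4316 and 4157 in the KO samples. WT-1, WT-2 and KO-1 lay above the other arrays, with the highest array at 1.56 times the lowest. Its difference was 0.02 (SE 0.17, limma adjusted p = 0.999) over all arrays and -0.29 (SE 0.08, limma adjusted p = 0.0552) without KO-1 and WT-3. Without the 2 arrays that stood apart, 7 fell and 2 rose of the 18, where 4.28% of all features fell and 3.77% rose.

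The segmentation clock and Notch list also gave 0 calls between the labels. Of its 20 genes 16 were above background, 15 with lower and 1 with higher values under the knockout label. Of all features 48.5% were lower. The median difference of the list was -0.18. WT-1, WT-2 and KO-1 lay above the other arrays in 11 of the 16, against 14.7% of all features, and 11 fell and 0 rose without the 2 arrays that stood apart (4.28% and 3.77% of all features). After Mesp1, the widest ranges were those of Dkk1, a Wnt antagonist, at 101, 86.9 and 57.5 against 90.7, 70.1 and 45.9, and of Epha4, an Eph receptor of somite boundaries. Epha4 measured 81.4, 85.2 and 47.7 against 65.7, 39.9 and 45.7, a difference of -0.35 (SE 0.19, limma adjusted p = 0.999). Mesp2, which sets the segment border, was dim, at 77.6, 72.6 and 56.3 against 72.3, 46.7 and 55.2. Hes5 and Ripply2, further genes of segmentation, were above background on 0 arrays.

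Genes of formed somites and their derivatives were dim. Of 19 such genes, among them Pax1, Uncx and the muscle factors, 8 passed the background filter. Their summed intensity was 433 to 453 on the arrays labelled wild type and 444 to 466 on those labelled knockout. The median difference was 0.01, with 4 higher, 4 lower and 0 calls. Eya1, with the widest range, measured 59.3, 54.6 and 46.0 against 52.4, 46.2 and 42.6. Nkx3-2, a homeobox gene of the sclerotome, ran the other way, at 56.9, 60.9 and 63.3 against 64.2, 72.7 and 76.0. Its labels did not overlap, and its difference of 0.17 (SE 0.07) had an unadjusted p of 0.0455, the smallest of the list, and a limma adjusted p of 0.999. Meox2, Pax7, Pax9, Tbx18, Tbx22, Myod1 and Sim1 were above background on 0 arrays. Without the 2 arrays that stood apart, 0 of the 8 rose or fell.

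**Figure D3:**
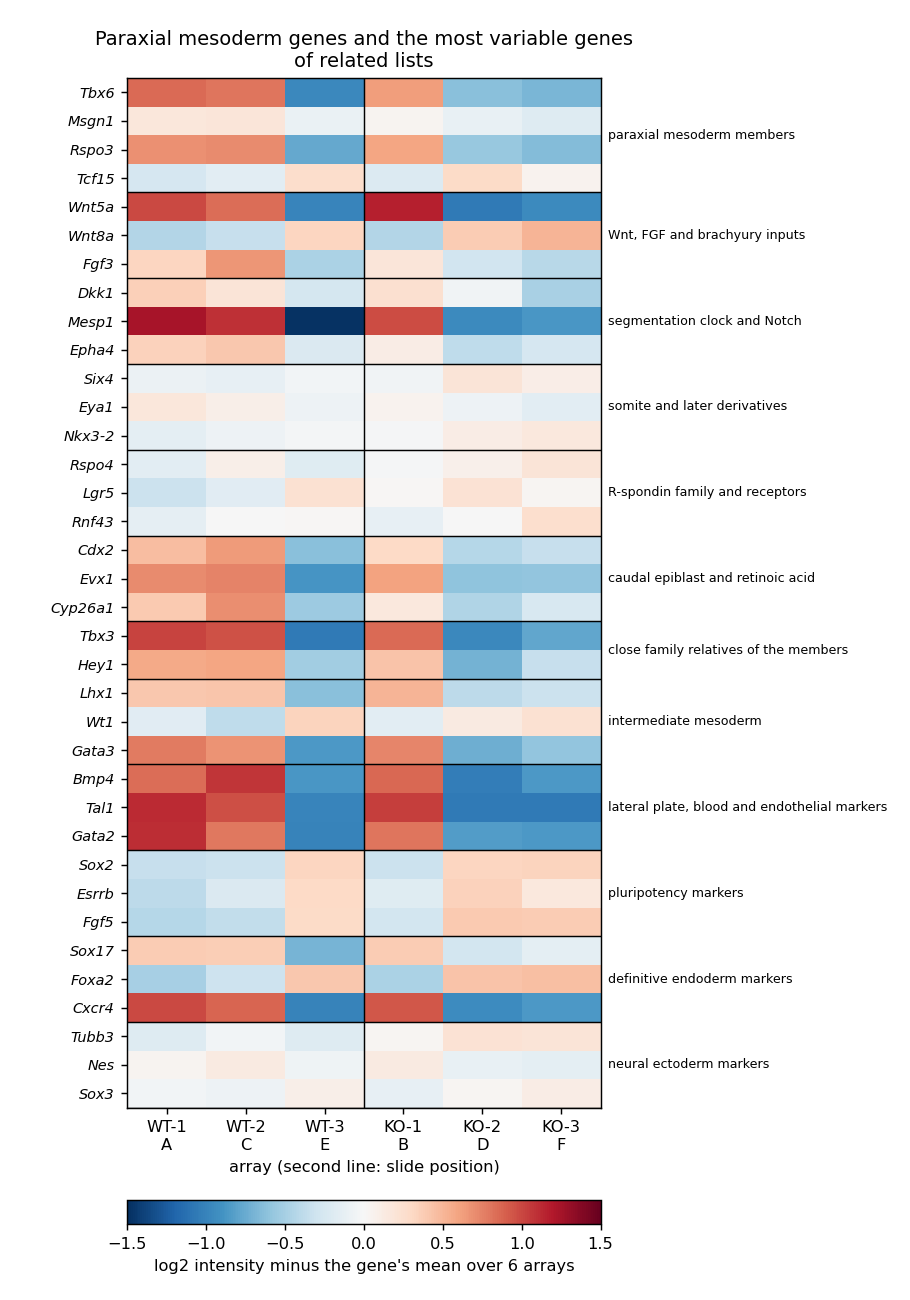
Log2 intensity minus the gene's mean over the 6 arrays (colour) for the 4 paraxial mesoderm genes above background and the 3 genes with the widest range in each related list, each gene drawn once, with arrays labelled wild type on the left, arrays labelled knockout on the right and slide positions on the second line. The colours change sign between WT-2 and WT-3 and between KO-1 and KO-2, for Tbx6 and Rspo3 as for Mesp1, Tal1 and Cxcr4.

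Caudal epiblast genes, which mark the progenitors of presomitic tissue, and genes of the retinoic acid pathway were read in 1 list and were mixed. Of 15 genes 11 were above background, 6 with higher and 5 with lower values, 0 called, and a median difference of 0.01. Cdx2, a caudal homeobox factor, measured 316, 361 and 137 in the WT samples and 281, 160 and 172 in the KO samples. Cyp26a1, which degrades retinoic acid in the tail bud, measured 309, 384 and 150 against 258, 161 and 190. Both were high on the arrays where Tbx6 was high. Sox2, which Tbx6 holds down in the mouse tail bud, measured 91.7, 93.7 and 159 against 93.1, 159 and 161. Its high arrays were the low arrays of Tbx6 and the high arrays of Tcf15. Without KO-1 and WT-3, 4 of the 11 fell and 2 rose, against 4.28% and 3.77% of all features. Cyp26b1, with the smallest p between the labels, differed by -0.15 (SE 0.12, limma adjusted p = 0.999). It is among the 4 that fell, and lay above background only on WT-1, WT-2 and KO-1.

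Markers of other cell types split over the same arrays. Of 18 lateral plate, blood and endothelial markers 16 were above background. Of these 15 had lower values under the knockout label, against 48.5% of all features, and 0 were called (median -0.28). In 15 of the 16, WT-1, WT-2 and KO-1 lay above the rest (14.7% of all features). The summed intensity of the 16 was 2811 to 8421 on the arrays labelled wild type and 2851 to 7720 on those labelled knockout. Of the 18, 0 were below background on every array. Gata2, a factor of blood progenitors, measured 338, 267 and 61.0 against 268, 71.1 and 69.2. Of 12 pluripotency markers all were above background, and in 10 those 3 arrays lay below the rest (15.3% of all features). Their summed intensity was 21077 to 32235 under the wild type label and 25399 to 29111 under the knockout label (median difference 0.11, 0 called). Esrrb, a naive pluripotency factor, measured 135, 156 and 232 against 161, 241 and 209. Without KO-1 and WT-3, 14 of the 16 lateral plate, blood and endothelial markers fell and 0 rose, and 5 of the 12 pluripotency markers rose and 0 fell, where 4.28% of all features fell and 3.77% rose. Foxf1, among the 14, lay above background only on WT-1, WT-2 and KO-1. The part of either cell type in the values of Tbx6, Rspo3, Msgn1 and Tcf15 was not tested.

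**Figure D4:**
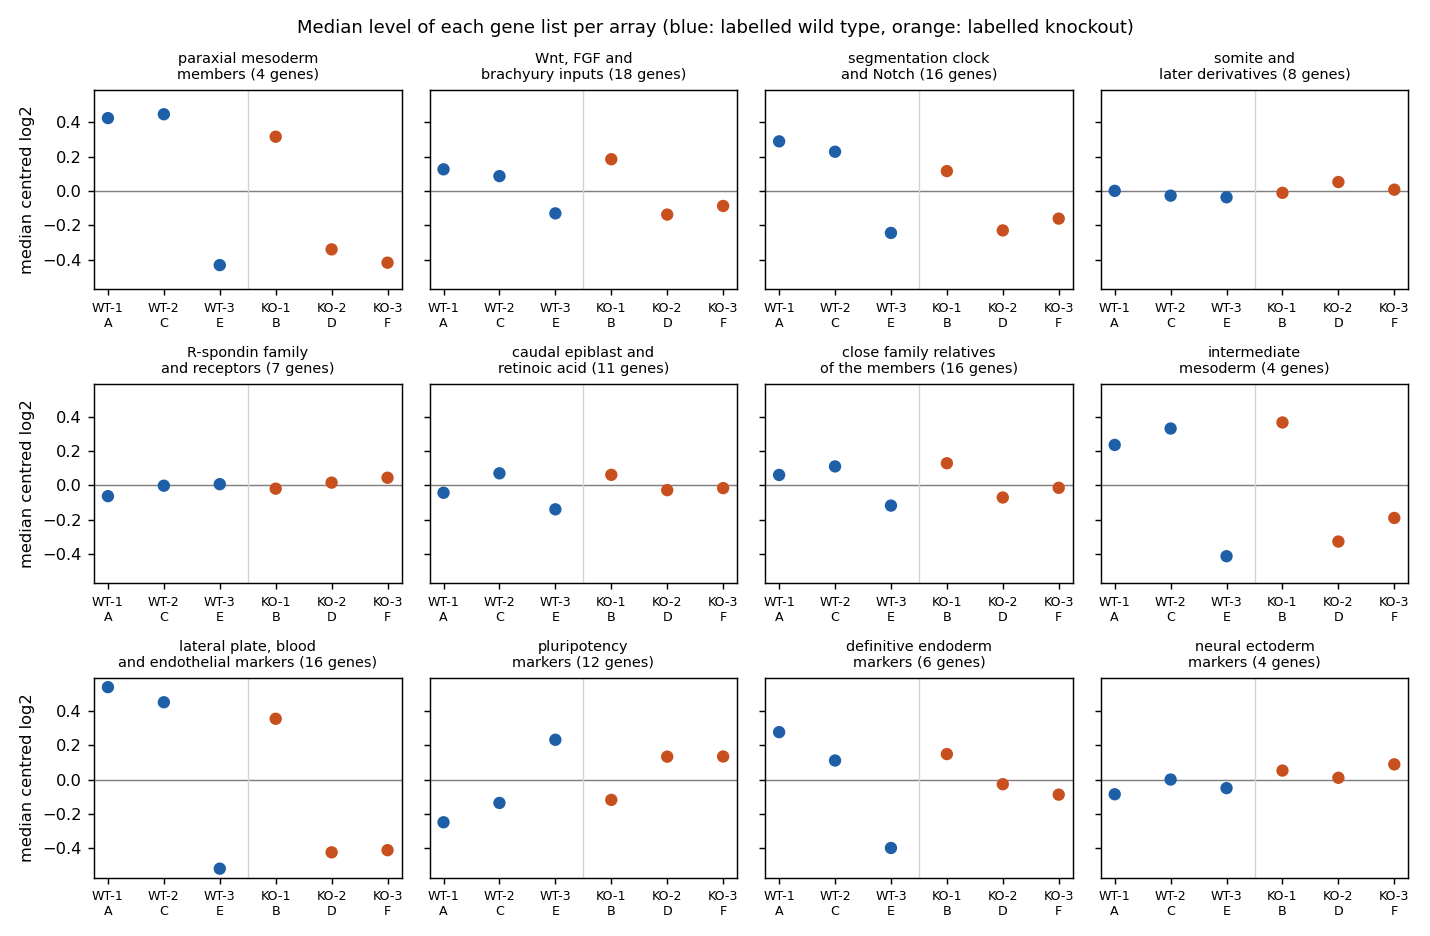
Median over the genes of each list of the log2 intensity minus the gene's own mean, per array, with blue points for arrays labelled wild type, orange points for arrays labelled knockout and slide positions on the second line. The 4 paraxial mesoderm genes had medians of 0.42, 0.45 and -0.43 on WT-1, WT-2 and WT-3, and of 0.32, -0.34 and -0.42 on KO-1, KO-2 and KO-3. The pluripotency markers had the opposite signs.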

How the data were processed

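The authors' deposited intensities, linear and 1 per probe and array, were the data analysed. Trizol RNA was cleaned on columns with DNase and amplified to biotinylated cRNA, per the labels' protocols. The sources used here do not give the normalization; the 6 columns share a maximum of 32123. The 12 value columns of a second deposited table match no sample label and were not used. Intensities were corrected with normexp (offset 50), taken to log2 and fitted in limma 3.58.1 (R 4.3.3; two-sided, Benjamini-Hochberg over all features, threshold 0.05, all 6 arrays, no covariate). The background limit is the 95th percentile of a normal background around each array's most frequent intensity. Features above it on at least 3 arrays were kept, with 1 probe per gene (highest mean), 16618 in all. Symbols came from the platform annotation (29976 probes) or the symbol column matched to RefSeq (5136). The fit was tested on simulated data.

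Members, lists and alternatives were chosen with earlier results of these data known. The rule for names covered all members, the 3 widest ranges and 2 smallest p of each related list, and the 5 genes most like Tbx6, Msgn1, Rspo3 and the members' mean; all members but only some of the list genes are described. List medians have no test. For 1 list, a gene is not reported here by name. No 2 arrays held identical values. The number of arrays limits the precision.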

Additional observations from a re-analysis of the deposited data

How the results depend on the processing

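Under 17 of the 18 alternatives, covering background correction, normalization, filter, every probe tested, variance model, array weights, replicate block, slide position block and each array left out, 0 features and 0 paraxial mesoderm genes were called in limma. The exception, leaving out knockout replicate 1 and wild type replicate 3 together, gave 1338 features and 4 members. That count covers features kept by the filter and so leaves out Foxc2. Leaving out 1 array gave 0 and 0 throughout. Slide position as a block reversed Tbx6 (0.0603), Rspo3 (0.0273) and Tcf15 (-0.0525), and Tcf15 was also reversed without wild type replicate 1 (-0.0148) or knockout replicate 2 (-0.0323). With 1 array left out, Tbx6 ranged from -1.05 to -0.14, Rspo3 from -0.90 to -0.17, Msgn1 from -0.26 to -0.12 and Tcf15 from -0.0323 to 0.244. Tbx6 lay farthest from 0 without wild type replicate 3 and Rspo3 likewise. Msgn1 kept its direction under all 18 alternatives. Same-numbered arrays deviated from their label means at correlations of 0.61, -0.30 and 0.53. These signs follow from KO-1 and WT-3 standing apart, so they cannot show whether the numbers pair the samples. The replicate block left the counts at 0 and 0. Probes near background, such as Msgn1, Foxc2 and Hes7, are limited by their signal.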

Other observations

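Among the receptors and relatives of Rspo3, 9 of the 10 R-spondin family genes and receptors listed had a probe, and 7 were above background. All 7 had higher values under the knockout label, where 48.5% of all features had lower ones. Rspo2 (0.006, SE 0.06) and Lrp5 (0.012, SE 0.07) lay near 0. None passed in limma, and the median difference was 0.08. Lgr5, an R-spondin receptor, measured 68.8, 78.4 and 111 in the WT samples and 93.0, 110 and 93.8 in the KO samples. Rspo4, with the smallest p of the list, differed by 0.17 (SE 0.09, limma adjusted p = 0.999). Lgr4, the related receptor, was above background on 0 arrays.

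Of 26 T-box, bHLH, forkhead, paired-box and Hes relatives of the members, 25 had a probe. Above background were 16, with 9 lower, 7 higher and 0 called (median -0.01). Tbx3 measured 402, 385 and 78.5 against 356, 84.9 and 99.99, and Hey1, a Notch target, 347, 355 and 151 against 316, 130 and 174. Foxq1, with the smallest p, measured 169, 162 and 162 against 175, 187 and 167. In intermediate mesoderm 4 of 7 genes were above background and 0 were called (median -0.10). Gata3 measured 186, 172 and 44.1 against 179, 50.7 and 57.7. All 6 definitive endoderm markers were above background with 0 called (median 0.03). Cxcr4, a receptor of mesoderm and endoderm, measured 641, 589 and 143 against 614, 151 and 160, while Foxa2 measured 269, 311 and 525 against 273, 532 and 540. Of 7 neural markers 4 were above background, 0 were called (median 0.05), and Sox1, Pax6 and Zic1 were above background on 0 arrays. Tubb3, a neuronal tubulin, had the smallest p of that list, with a difference of 0.29 (SE 0.08, unadjusted p 0.0072, limma adjusted p = 0.999). Without KO-1 and WT-3, the counts that rose and fell were 1 and 0 in the R-spondin list, 1 and 6 among the relatives, 1 and 2 in intermediate mesoderm, 2 and 3 in endoderm, and 1 and 0 among neural markers, where 3.77% of all features rose and 4.28% fell.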
